A study of Mus musculus with 17 samples.

Results

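Of the 288674 peaks that the STAG2 antibody gave on chromosomes 1 to 19 in the first library of Stag2-WT mouse urothelium, 9486 were at least 700 bp wide and met a peak of at least 700 bp in the second Stag2-WT library. In 2276 of these 9486 regions (24%), neither library of Stag2-KO urothelium held a STAG2 peak of 500 bp or more. These 2276 regions, called narrowed or lost regions here, are the subject of the report. The other 7210, in which a KO library kept a peak of 500 bp or more, are called kept regions. The STAG2 peak widths of both genotypes chose the regions, so the STAG2 values below are a description and carry no test.

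Cohesin is a ring-shaped complex that links sister chromatids and folds the genome into loops, and STAG2 is among its core subunits. Cohesin gathers at CTCF sites, active promoters and enhancers, where STAG1 can take the place of STAG2. DREAM is the complex that keeps cell cycle genes off in resting cells. LIN54 is its DNA-binding MuvB subunit, which stays on in other MuvB complexes when cells cycle, and p130 (encoded by Rbl2) is its pocket protein. The urothelium is the layered lining of the bladder, formed of basal, intermediate and luminal cells that rarely divide at rest.

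The assay was CUT&RUN, in which a nuclease guided by an antibody cuts out the DNA around a bound protein for sequencing. Urothelium was peeled from the bladders of Stag2-KO and Stag2-WT mice (here KO and WT), all of them 1 week after TMX induction, so that the WT mice shared the treatment. The labels name neither the recombinase and its promoter nor the age or sex of the animals. They do not say whether each library came from a different animal. For STAG2 there were 2 KO and 2 WT libraries, for LIN54 2 KO and 3 WT, and for p130 3 KO and 3 WT, all labelled as biological replicates. Every STAG2 and LIN54 library belonged to batch 1, while batch 2 held p130-WT replicate 1 and batch 3 the remaining p130 libraries. A peak list cannot show the deletion itself, since it holds places of binding and no allele.

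The 15 peak lists held 286084 to 539200 peaks each, called at p up to 0.05, over a background of 1.28 to 2.03 fragments per base. Most of these peaks are weak. Of STAG2 peaks of 500 bp or more on chromosomes 1 to 19, 1.55% and 7.33% reached a q of at most 0.01 in the KO libraries, against 30.2% and 16.1% in the WT libraries. The KO libraries were thus weaker over the whole genome and not only in the 2276 regions, although their background coverage (1.74 and 2.03 fragments per base, against 1.74 and 1.36 in WT) was not lower. The part of this in the choice of regions was not tested.

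Promoters of named genes whose start lies inside a narrowed or lost region are shown first, since the results on gene ends, LIN54 and p130 return to them. They were picked by rule from the 20 widest and best scoring regions and the widest regions without a KO peak, and run from 250 bases before to 50 after the gene's start (RefSeq, GRCm38.p6, the assembly of mm10). Capitals mark matches on either strand to the letters searched. In Six5 these are the AP-1 letters TGANTCA and AGGGGGC, the core of the CTCF consensus. In the others they are the CCAAT box and the GC box GGGCGGG, which in Tmem131 is overlapped in 1 place by the CTCF core.
Six5, a homeobox gene, chr7:19094294-19094593, plus strand: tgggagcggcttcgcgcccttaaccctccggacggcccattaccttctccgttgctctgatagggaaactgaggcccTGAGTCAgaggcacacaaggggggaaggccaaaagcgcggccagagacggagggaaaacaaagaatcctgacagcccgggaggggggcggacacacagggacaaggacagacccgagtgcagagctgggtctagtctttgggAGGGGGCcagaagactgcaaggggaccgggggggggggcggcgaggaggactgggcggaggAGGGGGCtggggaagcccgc
Mtmr12, a myotubularin family gene, chr15:12204778-12205077, plus strand: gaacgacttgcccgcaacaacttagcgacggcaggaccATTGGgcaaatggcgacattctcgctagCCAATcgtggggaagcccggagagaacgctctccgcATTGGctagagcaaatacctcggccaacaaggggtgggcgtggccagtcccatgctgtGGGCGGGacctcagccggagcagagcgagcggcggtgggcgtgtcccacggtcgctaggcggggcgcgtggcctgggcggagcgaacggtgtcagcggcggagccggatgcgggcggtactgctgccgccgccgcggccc
Tmem131, a membrane protein gene, chr1:36939478-36939777, minus strand: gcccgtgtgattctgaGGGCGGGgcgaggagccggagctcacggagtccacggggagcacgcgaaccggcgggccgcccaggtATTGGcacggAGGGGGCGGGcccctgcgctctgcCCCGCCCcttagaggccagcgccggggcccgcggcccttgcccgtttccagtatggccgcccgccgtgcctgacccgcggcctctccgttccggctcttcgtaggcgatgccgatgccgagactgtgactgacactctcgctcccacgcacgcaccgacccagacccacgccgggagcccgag
Pi4k2a, a phosphatidylinositol kinase gene, chr19:42090185-42090484, plus strand: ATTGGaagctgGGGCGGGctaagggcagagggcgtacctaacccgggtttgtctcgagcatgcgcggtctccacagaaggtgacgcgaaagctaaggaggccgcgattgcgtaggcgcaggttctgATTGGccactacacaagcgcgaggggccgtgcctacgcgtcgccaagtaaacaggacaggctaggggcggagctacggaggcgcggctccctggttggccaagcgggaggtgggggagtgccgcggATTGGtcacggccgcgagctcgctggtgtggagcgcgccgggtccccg
A match is only a run of letters. Over all 31365 promoter windows, the AP-1 letters occurred in 7.85%, the CCAAT box in 37.3% and the GC box in 25.8%. In the 754 windows whose start lies in a narrowed or lost region these shares were 3.98%, 35.8% and 49.7%. In the 4457 windows of kept regions they were 5.07%, 42.2% and 51.5%. Promoters in both kinds of region were rich in G and C, with a median GC content of 62.7% in narrowed or lost and 62% in kept regions, against 53% over all windows. Each held a median of 23 or 22 CpG pairs, against 7 over all windows.

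Among letters linked to other factors, the ETS letters CCGGAAG stood in 15.1% of windows of narrowed or lost regions and 17.6% of windows of kept regions, against 9.0% of all. The CTCF core stood in 18.2% and 17.4%, against 10.7%. The cell cycle letters TTTGAA (CHR, the element that LIN54 reads) stood in 10.2% and 10.8%, against 17.6%. The E2F letters GGCGGGAA stood in 3.85% and 4.17%, against 2.17%. The CRE letters TGACGTCA stood in 2.39% and 3.32%, against 1.83%. The GRHL letters AACCNGTT stood in 2.52% and 1.55%, against 2.08%. All were searched on both strands, and the letters can overlap each other. In GC content and in most of these shares, promoters of narrowed or lost regions resembled those of kept regions more than the genome's. No genome sequence was used here, so regions away from gene starts were not searched.

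In KO, what was left of these regions was a short, weak peak or none. A STAG2 peak of any width remained in 860 of the 2276 regions (37.8%) in KO replicate 1 and in 1157 (50.8%) in KO replicate 2. Where there was a peak, its median width was 325.5 bp and 374 bp in the KO libraries, against 1164.5 bp and 907 bp in the WT libraries. Both KO libraries had a peak in 524 regions, replicate 1 alone in 336 and replicate 2 alone in 633. The remaining 783 regions (34.4%) had no KO peak at all. The same region thus often had a remnant in only 1 of the KO libraries. The authors' fold enrichment at the summit had a median of 2.32 and 2.46 in KO and 3.68 and 3.29 in WT, each within its own library. These folds correspond to a median of 7 and 9 overlapping fragments in KO and 12 and 8 in WT, so each peak rests on few fragments.

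**Figure D1:**
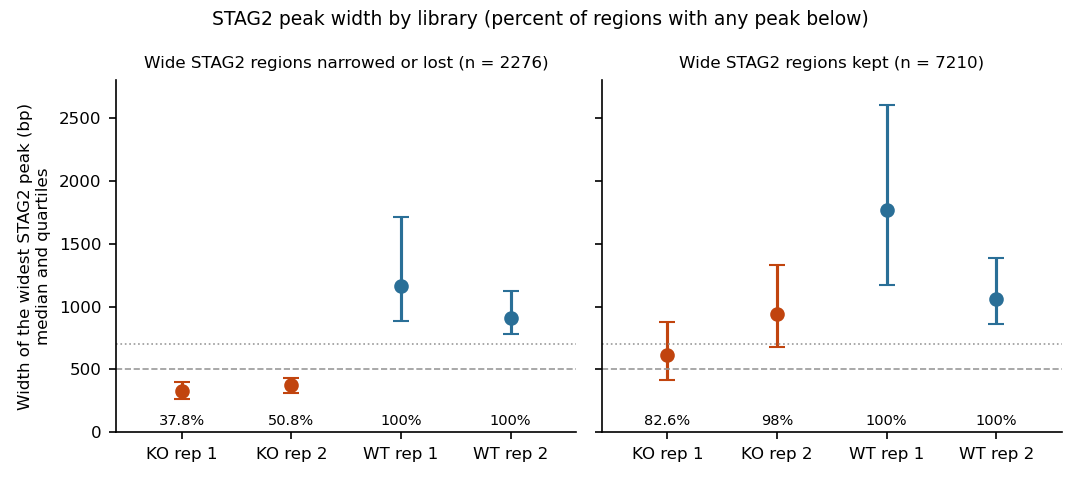
Width of the widest STAG2 peak in base pairs in narrowed or lost (left) and kept (right) regions, by library. Points are medians and bars quartiles over regions with a peak, the percent of regions with any peak stands below, and the dotted and dashed lines mark 700 and 500 bp. Narrowed or lost regions had median widths of 325.5 and 374 bp in KO and 1164.5 and 907 bp in WT, a gap that the rule itself sets.

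The regions were also weaker than kept regions in WT, where the rule asked only for width. A q of at most 0.01 was reached in both WT libraries by 568 of the 2276 narrowed or lost regions (25%) and by 4413 of the 7210 kept regions (61.2%), and in neither WT library by 666 narrowed or lost regions. A width of 1000 bp or more in both WT libraries was found in 25.3% of narrowed or lost and 49.4% of kept regions. In KO, 90 narrowed or lost regions held a peak of q at most 0.01. Peaks of kept regions were narrower in KO as well, with a median of 612 bp and 938 bp in KO libraries against 1765.5 bp and 1060.5 bp in WT libraries. The line between the sets is therefore a threshold on a continuous range. In 324 narrowed or lost regions the widest KO peak was 450 bp or more, just inside the limit of 500 bp, and in 390 kept regions it was under 550 bp, just outside. The narrowest members, each 700 bp wide in WT replicate 1, lay inside Dnmt3a (a DNA methyltransferase gene), at Klhl22 and in the intergenic space nearest to Ly86.

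The regions widest in both WT libraries are given first. At Crim1, which encodes a membrane protein that binds BMP ligands (chr17:78200253-78203651), the STAG2 peak was 385 and 477 bp wide in KO and 3399 and 2909 bp wide in WT. At Esrp1, an epithelial splicing regulator (chr4:11383731-11386293), it was 470 and 376 bp wide in KO and 2563 and 2763 bp in WT. The region inside Mef2d, a MADS-box transcription factor gene (chr3:88142649-88145721), had no peak in either KO library and peaks of 3073 and 2536 bp in WT. These regions were named for their WT width, so a wide WT peak is no finding about them. The other named wide regions lay at Fdx1 (a mitochondrial ferredoxin), Mpp5 (a scaffold of cell polarity), Galnt2 (an enzyme that starts O-glycans) and the neighbours Dmpk and Six5. They also lay inside Aplp2 (of the amyloid precursor family), inside Rbpj (the DNA-binding factor of Notch signalling) and inside Gm38469. All 10 were at least 2158 bp wide in both WT libraries.

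The region with the best q in both WT libraries was an intergenic region 1390 bp from Cibar2 (chr8:120178876-120179774). Its STAG2 peak was 257 and 376 bp wide in KO, with folds of 4.14 and 7.92, and 899 and 963 bp wide in WT, with folds of 13.1 and 20.4. Its KO replicate 2 peak still reached a −log10 q of 18.9, so a region counted as narrowed can hold a strong narrow peak in KO. At Mxd1, whose product opposes MYC at shared sites, the peak was 497 and 465 bp wide in KO and 948 and 941 bp in WT. Inside Med13l, a gene of the Mediator kinase module, it was 271 and 432 bp wide in KO and 1007 and 1781 bp in WT. Pi4k2a, whose promoter is shown above, had no KO peak and WT peaks of 1454 and 1305 bp with folds of 7.28 and 10.1. The other regions of this kind were intergenic near Ptp4a2, Prcd and Znfx1, inside Asb7, or at Mtmr12 and Tmem131.

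Of the widest regions without any KO peak, Mef2d is given above. A region inside Stag1, which encodes the other cohesin STAG subunit, was 1837 and 3352 bp wide in WT (chr9:100644151-100645987, 46442 bp from the nearest gene end). The others lay at Eif5, a translation initiation factor gene, inside Plekha6 and at Prrt1. A region at Hspa1b, a heat shock protein gene, also had no KO peak and was 1844 and 1659 bp wide in WT. Hspa1b has a near-identical neighbour, Hspa1a, and reads that fit both cannot be placed between them.

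**Figure D2:**
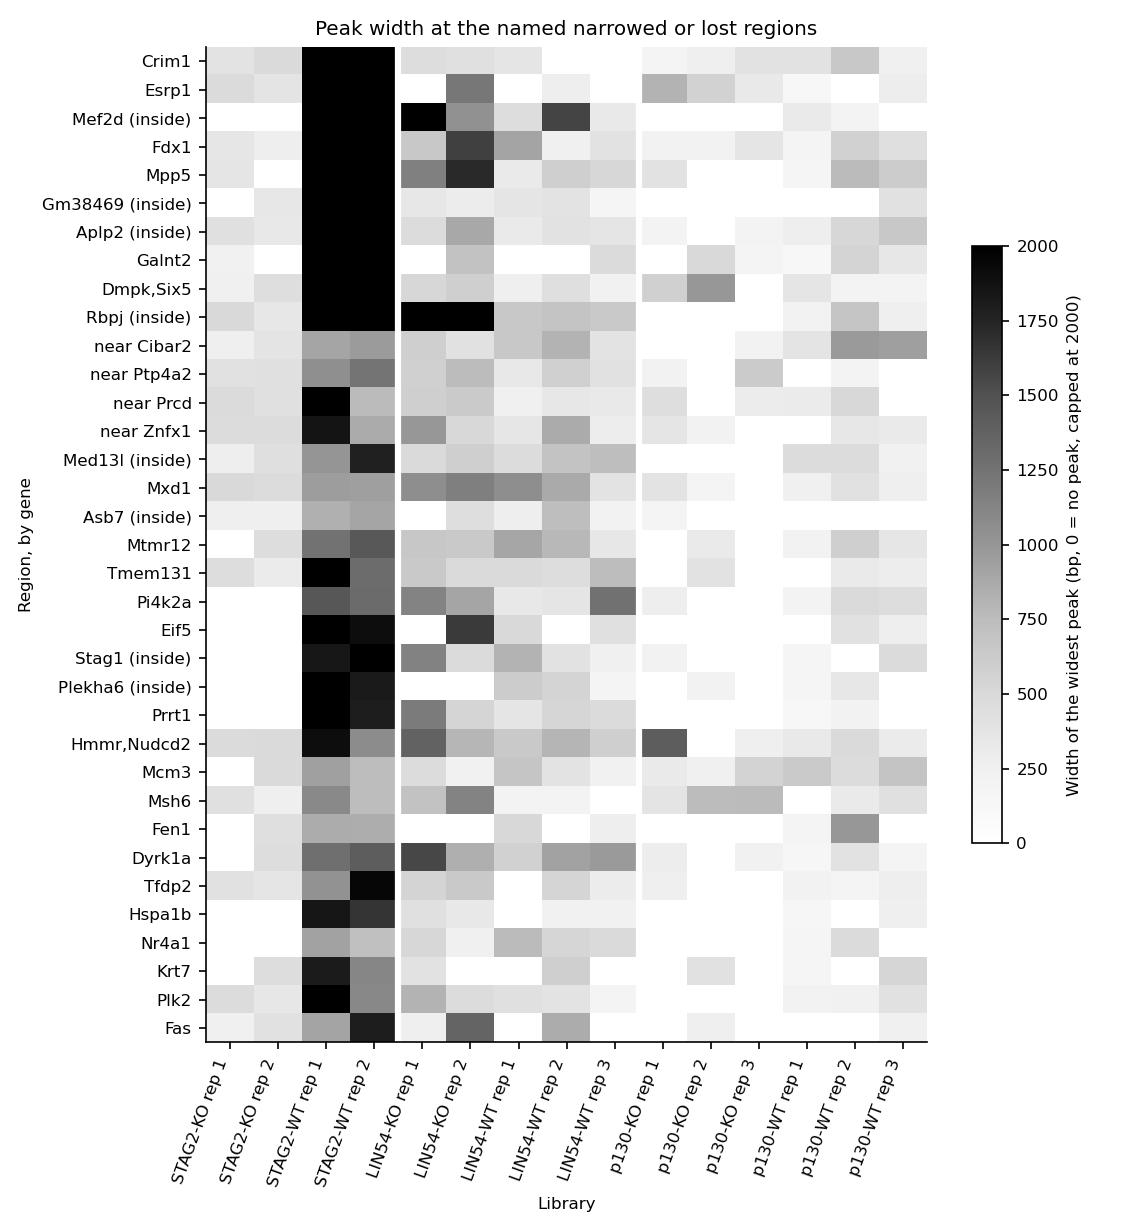
Width in base pairs (grey scale, capped at 2000, white for no peak) of the widest peak in 35 regions named by rule, in rows, across the 15 libraries in columns, KO before WT for each antibody. STAG2 columns are dark in WT and pale in KO by the rule, while LIN54 columns hold peaks in both genotypes in most rows and p130 columns are mostly pale.

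Narrowed or lost regions lay mostly inside genes and at gene ends. A region counted as at a gene end when it came within 500 bp of the start or finish of a protein-coding gene, which was so for 795 of 2276 regions (34.9%, Wilson 95% interval 33.0% to 36.9%), against 49.5% of kept regions and 6.22% of all 288674 peaks. Another 920 (40.4%) lay inside a gene and 561 (24.6%) between genes, against 29.1% and 21.4% of kept regions. A RefSeq gene start lay inside 582 of them (25.6%), against 43.7% of kept regions. The median distance to the nearest gene end was 3965.5 bp, against 547 bp for kept regions and 29623.5 bp for all peaks. A distance over 50 kb was found for 320 regions (14.1%), against 10.1% of kept regions. The 783 regions without a KO peak lay farther from genes still, 27.6% at gene ends and 29.6% between genes. Regions are not replicates, so these shares are set side by side without a test, and the interval covers counting error only. A wider region comes near a gene end more easily, and the shares and distances were not corrected for width. In STAG2-WT replicate 1 the median width was 1164.5 bp in narrowed or lost regions, 1765.5 bp in kept regions and 342 bp over all peaks.

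**Figure D3:**
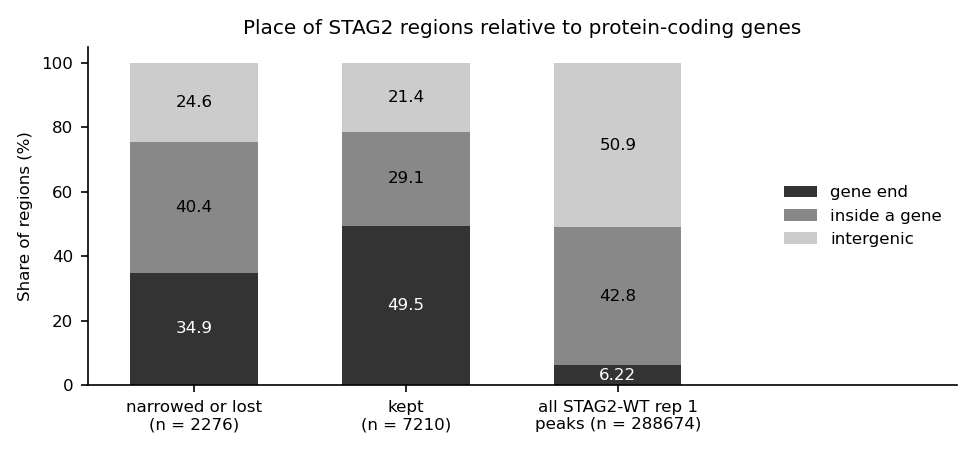
Percent of regions at a gene end (dark), inside a gene (mid grey) and intergenic (light) for narrowed or lost regions, kept regions and all peaks of STAG2-WT replicate 1. Gene ends made up 34.9%, 49.5% and 6.22%.

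The regions were spread over all 19 chromosomes. The share of wide regions that were narrowed or lost ran between 19% on chromosomes 3 and 14 and 27.4% on chromosome 2. Their summed length was 3212.86 kb. Some genes held several. Pde4d (a cAMP phosphodiesterase, 1302 kb long), Rad51b (a homologous recombination gene), Shb (an adaptor protein gene of 108 kb) and Ston2 (an endocytic adaptor) had 5 each. Pard3 (cell polarity), Rtkn2, Sgms1, Tet3 (a 5-methylcytosine oxidase) and Tmcc3 had 4 each. In all, 1684 genes were tied to a region by an end or by lying around it, and 173 of them to 2 or more. Hairpins of 6 microRNAs lay inside the regions: Mir7688, Mir1932, Mir1904, Mir695, Mir1956 and Mir762.

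Cell cycle genes were counted beside all genes. Of 20665 protein-coding genes, 889 (4.30%) had a narrowed or lost region there, 4098 (19.8%) a kept region and 108 both, so 18.2% of genes with either had a narrowed or lost one. Of 54 G2/M targets of DREAM, 1 (1.85%) had a narrowed or lost region (Hmmr, a spindle protein, at an end shared with Nudcd2) and 14 a kept one. Sgo1, which guards centromeric cohesin, had a narrowed or lost region inside the gene only, as did 795 of all 20665 genes. Of 67 G1/S targets, 6 (8.96%) had a narrowed or lost region and 14 a kept one. The 6 were Chaf1a (a histone chaperone), Fen1 (a flap nuclease), Mcm2 and Mcm3 (subunits of the replicative helicase), Msh6 (mismatch repair) and Pola2 (primase complex). At Mcm3 the STAG2 peak was 489 bp wide in KO replicate 2 and absent in KO replicate 1, against 932 and 743 bp in WT. Of 14 genes of DREAM and MuvB subunits, partners and a kinase, 2 (14.3%) had a narrowed or lost region and 3 a kept one. The 2 were Dyrk1a, the kinase that starts DREAM assembly, and Tfdp2, a dimer partner of E2F. Of 16 cohesin genes, none had a narrowed or lost region at an end and 3 had a kept one. These are counts in small lists and call nothing particular to them.

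Genes of the tissue are set beside the same 18.2% of all genes with either kind. Of 16 luminal urothelial genes, 1 had a narrowed or lost region at an end (Krt7, a keratin) and 11 a kept one, so 8.33% of the luminal genes with either kind had a narrowed or lost one. Grhl3 and Pparg, transcription factors of luminal cells, had a narrowed or lost region inside the gene only, as did 795 of all 20665 genes. Of 7 basal genes, 0 had a narrowed or lost region at an end and 2 a kept one, and Itga6 and Trp63 had a narrowed or lost region inside. Of 24 AP-1 and other immediate early genes, 2 had a narrowed or lost region at an end (Hspa1b and Nr4a1, an orphan nuclear receptor) and 19 a kept one. Fosb of the same list had a narrowed or lost region inside. Of 15 p53 targets, 2 had a narrowed or lost region at an end (Fas, a death receptor, and Plk2, a kinase) and 9 a kept one. Sesn1 had a narrowed or lost region inside. Wide STAG2 regions of either kind stood at an end of 1 of 8 fibroblast, 0 of 6 smooth muscle, 1 of 6 immune and 0 of 5 endothelial genes, and none of these was narrowed or lost. A region of either kind stood at an end of 12 of 16 luminal and 2 of 7 basal genes, against 4879 of all 20665 genes. The immediate early and p53 lists, which mark no tissue, had 20 of 24 and 11 of 15. These counts measure STAG2 peaks and not expression.

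LIN54 peaks lay on most narrowed or lost regions in both genotypes, and more of them were of low q in KO. A LIN54 peak of any width lay on 68.2% and 69.0% of the regions in KO libraries, against 64.1%, 71.1% and 55.4% in WT libraries. Windows of the same widths laid anywhere on these chromosomes would meet a peak in 19.9% to 23.3% of places in the same libraries. The mean was 68.6% ± 0.559 in KO (SD, n = 2) and 63.5% ± 7.86 in WT (SD, n = 3), a difference of 5.05 points with overlapping groups (two-sided exact permutation p = 0.6). Without LIN54-WT replicate 3, the lowest library, it was 0.989 points (exact p = 1). At a q of at most 0.01 the share was 23.3% and 20.7% in KO libraries, against 8.26%, 11.6% and 3.21% in WT libraries. Every KO library was then above every WT library, with means of 22% ± 1.80 (SD, n = 2) and 7.67% ± 4.20 (SD, n = 3) and a difference of 14.3 points. The exact permutation p was 0.2 (0.4 adjusted over 4 comparisons), and 0.2 is the smallest p that 2 against 3 libraries can give. LIN54 peaks of 500 bp or more lay on a mean of 38.8% in KO and 23.5% in WT (exact p = 0.2).

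The difference at q 0.01 had the same direction in kept regions and in the libraries as a whole. In kept regions the mean share was 61.5% in KO and 28.6% in WT, and the LIN54-KO libraries held 15641 and 12915 peaks of that q on chromosomes 1 to 19, against 4729, 6512 and 2134 in LIN54-WT libraries. The number of such peaks in a library thus moves with the result, and its part was not tested. Set against kept regions within each library, narrowed or lost regions had 39.5 points fewer in KO and 20.9 points fewer in WT, a difference of −18.5 points (exact permutation p = 0.2, 0.4 adjusted, n = 2 and 3). With any deposited peak this difference was −2.24 points (exact p = 0.2). At q 0.01 the mean share in KO was 2.87 times that in WT in narrowed or lost regions and 2.15 times in kept regions. The direction of the contrast with kept regions at q 0.01 thus depends on whether points or ratios are compared. The gaps to kept regions were not corrected for the greater width of kept regions.

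By region, a LIN54 peak of q at most 0.01 stood in each KO library but in none of the WT libraries in 107 of 2276 (4.70%), beside 11.1% of all 9486 wide regions, and the reverse in 0, beside 0.0211%. With peaks of 500 bp or more these counts were 125 and 5, beside 6.96% and 0.148%, and with any peak 39 and 41, beside 1.35% and 0.748%. The region inside Mef2d was of the first kind, with LIN54 peaks of 2927 and 1039 bp in KO and 456, 1578 and 327 bp in WT. Its −log10 q was 12.5 and 18.5 in KO and at most 1.89 in WT, so the groups overlapped in width but not in q. The region at Mpp5 was another, with 1154 and 1721 bp in KO and 312, 581 and 509 bp in WT. All 5 LIN54 libraries reached a q of 0.01 in 39 regions, with Pi4k2a, Bbs2 (a cilium gene), Trim26, Dlg4 and the neighbours Dhx38 and Txnl4b the widest. At Pi4k2a the LIN54 peak was 1125 and 900 bp wide in KO and 335, 369 and 1258 bp in WT, so the groups overlapped in width. No LIN54 library reached that q in 1495 regions, the widest of which lay at Galnt2 and Tgfa (an EGF receptor ligand) and inside Gm38469, Stk24 and Dlgap4. The counts of 39 and 1495 were taken in narrowed or lost regions only, with no share over all wide regions beside them. At the Dyrk1a end the LIN54 peak was 1559 and 840 bp wide in KO and 568, 917 and 969 bp in WT, again with overlap.

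Counted by any deposited peak, p130 was found on fewer of these regions in KO than in WT. The main p130 comparison, at a q of at most 0.01, had overlapping groups and is given after this one. A p130 peak of any width lay on 29.4%, 31.0% and 26.0% of them in KO libraries, against 54.9%, 54.6% and 46.0% in WT libraries. Every KO library was below every WT library. The means were 28.8% ± 2.56 in KO and 51.8% ± 5.01 in WT (SD, n = 3 each), a difference of −23.1 points (two-sided exact permutation p = 0.1, the smallest that 3 against 3 can give). Windows of the same widths laid anywhere would meet a p130 peak in 22.6%, 24.3% and 24.4% of places in KO libraries and in 28.8%, 22.5% and 22.3% in WT libraries. The regions were nearer to these window shares in KO than in WT. Within batch 3 alone, with 3 KO and 2 WT libraries, the difference was −21.5 points (exact p = 0.2), and batch 2 holds only 1 WT library.

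Most of these p130 peaks were weak in both genotypes. At Mcm3 they were strong, with a −log10 q of 14.7, 8.38 and 2.14 in KO and 34.1, 11.7 and 14.2 in WT. At a q of at most 0.01, the share was 0.571%, 0.308% and 0.308% in KO and 0.439%, 1.58% and 0.483% in WT. The groups overlapped, with a difference of −0.439 points (exact permutation p = 0.3, 0.4 adjusted, n = 3 each). Without p130-WT replicate 2 it was −0.0659 points (exact p = 0.6). A p130 peak of q at most 0.01 lay on only 7 to 36 of the 2276 regions per library. With so few regions, this comparison cannot decide whether strong peaks differ between genotypes as weak ones do. With peaks of 500 bp or more the mean share was 3.85% in KO and 9.11% in WT, without overlap (exact p = 0.1).

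In kept regions p130 peaks were also fewer in KO, with 51.3% in KO and 64.9% in WT (exact p = 0.1). Windows of the widths of kept regions would meet a p130 peak in 29.0%, 31.0% and 31.1% of places in KO libraries. In WT libraries this was 36.3%, 28.9% and 28.7%. Kept regions were wider than narrowed or lost ones, and the gaps that follow were not corrected for width. Relative to kept regions in the same library, narrowed or lost regions stood 22.5 points lower in KO and 13.0 points lower in WT, a difference of −9.43 points (exact permutation p = 0.1, n = 3 each). At a q of at most 0.01 the sign in points turned, with −2.34 points in KO and −3.09 points in WT, a difference of 0.749 points (exact p = 0.6, 0.6 adjusted). The order of the ratios did not turn. At that q the KO mean was 0.474 of the WT mean in narrowed or lost regions and 0.697 in kept regions. With any peak these ratios were 0.555 and 0.79. Among the 568 regions that reached a q of 0.01 for STAG2 in both WT libraries, any p130 peak lay on 30.5% in KO and 62.6% in WT, a difference of −32.1 points (exact p = 0.1).

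**Figure D4:**
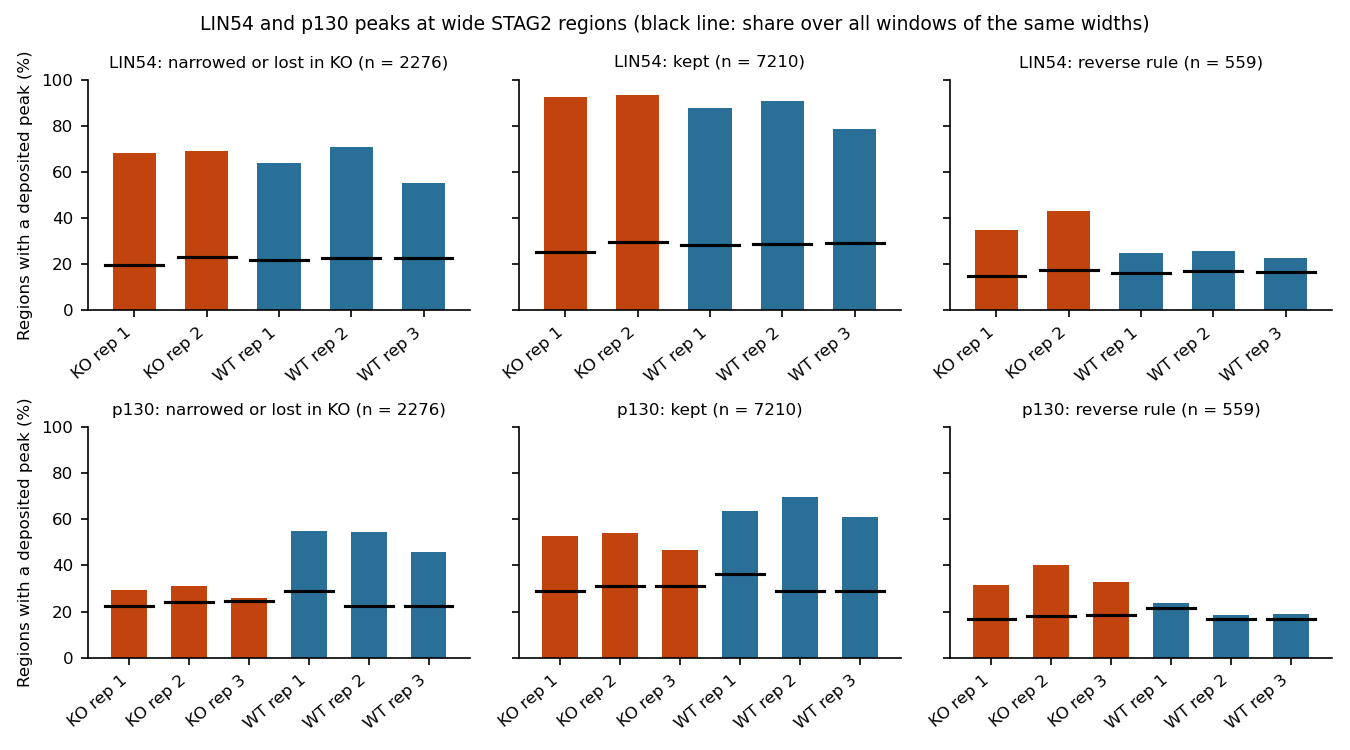
Percent of narrowed or lost regions (left), kept regions (middle) and regions of the reverse rule (right) that met any deposited LIN54 (top) or p130 (bottom) peak, by library, KO before WT. Black lines give the percent for windows of the same widths anywhere on chromosomes 1 to 19. In narrowed or lost regions p130 stood at 26.0% to 31.0% in KO and 46.0% to 54.9% in WT, while LIN54 shares overlapped.

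By region, a p130 peak in every WT and no KO library was found in 123 of 2276 (5.40%), beside 3.97% of all wide regions, and the reverse in 10, beside 0.538%. With p130 peaks of 500 bp or more these counts were 6 and 1, beside 0.559% and 0.137%. At q 0.01 they were 0 and 0, beside 0.0316% and 0.0211%. The region inside Med13l was of the first kind, with no p130 peak in KO and peaks of 463, 466 and 222 bp in WT, and with LIN54 peaks of 477 and 593 bp in KO and 465, 689 and 736 bp in WT. At Pi4k2a p130 had a peak of 268 bp in KO replicate 1 alone and peaks of 188, 479 and 447 bp in WT. Near Cibar2 it had a peak of 215 bp in KO replicate 3 alone and peaks of 377, 976 and 943 bp in WT. Inside Mef2d, p130 had no peak in KO and 316 and 194 bp in 2 of the WT libraries. Other named regions went the other way. At Esrp1 p130 peaks were 807, 558 and 327 bp wide in KO, against 140 and 279 bp in 2 of the WT libraries. At Msh6 they were 382, 755 and 758 bp wide in KO, against 317 and 415 bp in 2 of the WT libraries. Inside Dlg4 their −log10 q was 7.95, 5.25 and 0.625 in KO and at most 1.43 in WT. No p130 library had a peak in 197 regions, and all 6 had one in 58. These counts were taken in narrowed or lost regions only, with no share over all wide regions to set beside them.

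Both differences had the same direction at gene ends and away from them. At gene ends, p130 peaks lay on 37.1% of regions in KO and 62.0% in WT, inside genes on 25.2% and 48.7%, and between genes on 22.8% and 42.6% (exact p = 0.1 in each, n = 3 each). LIN54 peaks of q at most 0.01 lay on 31.6% in KO and 13.0% in WT at gene ends, on 17.2% and 4.53% inside genes, and on 16.3% and 5.35% between genes (exact p = 0.2 in each, n = 2 and 3). Among regions without a KO STAG2 peak, p130 stood at 21.2% in KO and 45% in WT, and LIN54 at q 0.01 stood at 12% in KO and 3.96% in WT. Among regions that kept a short KO peak, these were 32.8% and 55.4% for p130, and 27.3% and 9.62% for LIN54. Regions with a remnant of STAG2 in KO thus had more LIN54 and p130 peaks in either genotype. This contrast was not corrected for width. In STAG2-WT replicate 1, regions without a KO peak had a median width of 999 bp, against 1164.5 bp for all narrowed or lost regions.

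Cover by LIN54 and p130 peaks was also read at the WT STAG2 summit. A LIN54 summit lay within 200 bp of it in 46.1% and 46.4% of regions with a LIN54 peak in KO and in 43.7%, 43.4% and 42.1% in WT. A p130 summit did so in 31.1%, 32.3% and 30.3% in KO and in 37.7%, 38.2% and 34.2% in WT, so in most regions the summits lay farther apart. The summit of STAG2-WT replicate 2 itself lay within 200 bp of that of replicate 1 in only 42.0% of the regions. At the summit of STAG2-WT replicate 1, LIN54 peaks covered 39.2% and 39.5% of regions in KO and 29.0%, 36.8% and 21.6% in WT, against flanks 4 to 5 kb away of 8.66% and 8.09% in KO and 7.06%, 9.10% and 6.31% in WT. For p130 the summit values were 7.25%, 7.91% and 6.33% in KO and 14.6%, 18.6% and 14.3% in WT. The p130 flanks were 5.03%, 4.99% and 5.52% in KO and 7.5%, 5.58% and 5.37% in WT. The p130 summit stood less above its flanks in every KO library than in any WT library. STAG2 cover at the same point was 13.0% and 22.1% in KO and 70.1% in WT replicate 2, with flanks of 6.37%, 10.6% and 11%.

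**Figure D5:**
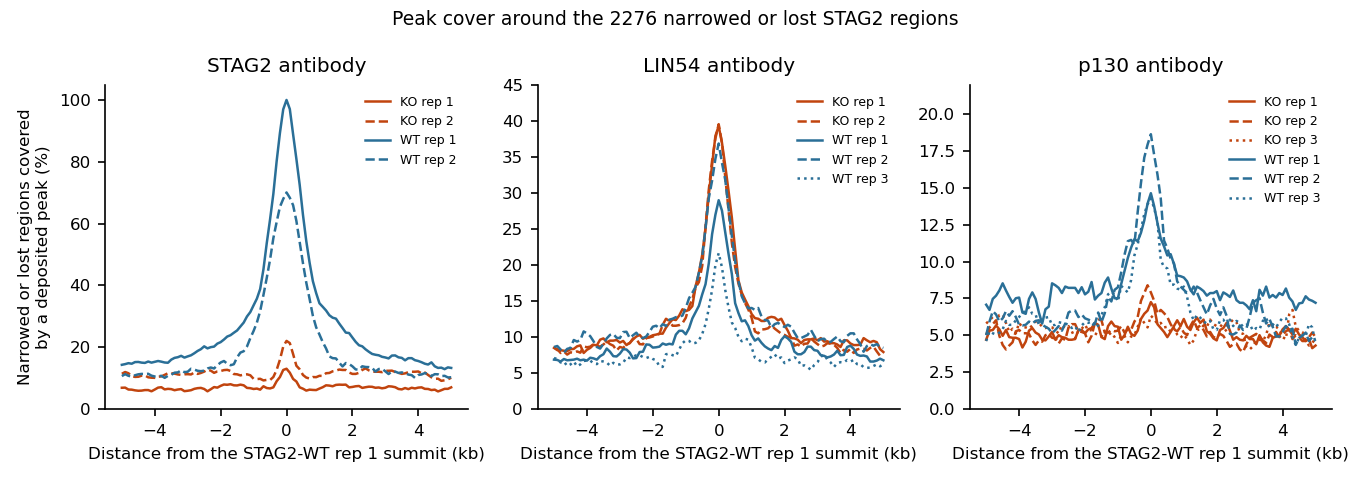
Percent of the 2276 narrowed or lost regions covered by a peak at each distance, in kb, from the STAG2-WT replicate 1 summit, for STAG2, LIN54 and p130 libraries (KO orange, WT blue). WT replicate 1 of STAG2 is at 100% at 0 because it defines the centre, and at 0 p130 reached 6.33% to 7.91% in KO and 14.3% to 18.6% in WT.

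The rule turned round gave fewer regions. Of 3234 regions that were 700 bp or wider in both KO libraries, 559 (17.3%) met no WT peak of 500 bp or more. On these, p130 peaks of any width lay on 34.9% in KO and 20.4% in WT (exact permutation p = 0.1, n = 3 each), the opposite direction to the narrowed or lost regions. LIN54 peaks lay on 38.9% in KO and 24.5% in WT (exact permutation p = 0.2, n = 2 and 3), and at a q of at most 0.01 on 5.55% and 0.477%.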

How the data were processed

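CUT&RUN libraries of peeled mouse urothelium were studied. The labels list 17 samples, 15 have a peak list, and the 2 pMNase samples were not analysed here. The submitters' processing notes name the tools bcl2fastq, Bowtie2 and MACS2 and the genome build mm10. Versions, settings and any control library are not given in the sources used here. Each deposited peak has a summit position, a fold enrichment (a ratio over local background), a −log10 p, a −log10 q and a score. The authors made each value within 1 library, and here they only describe, rank and filter peaks. The deposited score was not used further.

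Regions were found by overlap of at least 1 bp. The gene table gives both ends of 20665 protein-coding genes on chromosomes 1 to 19. A share is the percent of regions that a library's peaks meet, and a library is the unit of each two-sided exact permutation test, with Benjamini-Hochberg adjustment over the 4 main comparisons. Each permutation p ranks the observed difference among all relabellings of these libraries, and it speaks for these libraries only. Its smallest value is set by the number of libraries. Fragment counts were recovered from fold and p, and 99.9663% or more of the summits tried per library were whole within 0.0005 in log10 p. Where a list has no peak, none was detectable at its depth. Of 244 listed genes, 238 matched.

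The members, gene lists, motifs and naming rules were chosen with earlier results of these data known. Named were the 10 widest and the 10 best regions by q in both WT libraries, the 5 widest without a KO peak, up to 3 per gene list, the 5 widest with a LIN54 peak of q 0.01 in all or in no LIN54 library, and 3 at each side of the limits. Other list members and genes with several regions were named after their values were seen. Alternatives were other widths, overlaps, gene windows and peak thresholds, each library left out, batch 3 alone and replicate numbers as a block. The code was tested on simulated peak lists, where 500 of 500 planted regions were recovered. Software was Python 3.11.15 with SciPy 1.17.1, NumPy 2.4.6, Matplotlib 3.10.9 and pandas 2.3.3.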

Additional observations from a re-analysis of the deposited data

Results flagged for a closer look

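The X chromosome lies outside the rule, which covers chromosomes 1 to 19, and the same rule applied there found 42 narrowed or lost STAG2 regions among 67 that were wide in both WT libraries (62.7%). The rule turned round found 0 of 2. The KO libraries had 9 and 24 peaks of 700 bp or more on the X chromosome, against 380 and 248 in the WT libraries. Peaks of any width there numbered 1441 and 740 in KO and 2920 and 8689 in WT. The labels do not give the sex of the animals, so a difference in sex between the groups and the genotype cannot be told apart in these X values. LIN54 lists had 297084 of 298573 and 362451 of 365347 peaks on chromosomes 1 to 19 in KO. In WT these were 348160 of 366841, 357816 of 373428 and 367179 of 379179. For p130-WT they were 506896 of 539200, 357835 of 359462 and 354316 of 356035. For p130-KO they were 359630 of 360794, 395863 of 397203 and 388334 of 389675. A part of sex in the LIN54 and p130 results was not tested.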

How the results depend on the processing

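The number of narrowed or lost regions is set by the width limits. A WT limit of 500, 600, 800 or 1000 bp gave 6825, 3883, 1396 or 576 regions. A KO limit of 300 or 700 bp, or no KO peak of any width, gave 1107, 3785 or 783, and a q of at most 0.01 in both WT libraries left 568. Leaving out 1 library gave 2845 (without STAG2-KO replicate 1) to 21495 (without STAG2-WT replicate 2), with 5559 without STAG2-KO replicate 2 and 13397 without STAG2-WT replicate 1, since fewer libraries then have to meet the rule. KO limits of 466 and 514 bp, at which each KO library has as many peaks above the limit as WT replicate 1 has of 500 bp, gave 2273. The share at gene ends was 26.6%, 30.6% or 39.4% with a window of 0, 250 or 1000 bp. It was 23.2%, 29.7%, 39.5% or 48.6% with a WT limit of 500, 600, 800 or 1000 bp, and 19.8% to 40.6% with a library left out.

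No test between genotypes could reach 0.05, so no alternative changed a call. The LIN54 difference of 14.3 points and the p130 difference of −0.439 points kept their signs in all alternatives run, but the p130 value came to −0.0659 without p130-WT replicate 2. With any deposited peak the LIN54 difference was 5.05, and 0.989 both without LIN54-WT replicate 3 and with the replicate block (exact p = 1 in each). For LIN54 the replicate block leaves out LIN54-WT replicate 3, which has no same-numbered KO library, so both settings give the same difference. The p130 difference relative to kept regions (0.749 points at q 0.01) changed sign with any deposited peak (−9.43, batch 3 alone −7.39, replicate block −9.43, and, with p130-WT replicate 1, 2 or 3 or p130-KO replicate 1, 2 or 3 left out, −7.39, −10.5, −10.4, −8.93, −9.11 and −10.2). At q 0.01 it ran between −0.119 (without p130-WT replicate 2) and 1.36 with libraries left out. With all libraries, the ratio of KO to WT means for p130 was lower in narrowed or lost than in kept regions at both thresholds. The cause of the sign change in points was not tested. Widths of same-numbered libraries deviated with correlations of −0.0337 to −0.0040. Each deviation was taken from the mean of only 2 or 3 libraries, so these values cannot decide whether replicate numbers pair the libraries. With the replicate block the LIN54 difference was 12.1 (exact p = 0.5), the p130 difference −0.439 (exact p = 0.5), the LIN54 difference relative to kept regions −14.6 (exact p = 0.5) and that of p130 0.749 (exact p = 0.75). Peaks rest on a median of 7 to 12 fragments, so the difference between a narrow peak and none is near the limit of depth.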
